A study of Mus musculus with 20 samples.

Results

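The genes described here are 8 that mark or set the choice between the CD4 and the CD8 T cell lineage: Cd4, Cd8a, Cd8b1, Zbtb7b, Runx1, Runx3, Cbfb and Crtam. They were taken by gene symbol from the table of protein-coding genes, where they make up 8 of 22048 entries, and all 8 passed the filter on low counts that left 13072 genes for testing. Their levels were followed in 20 RNA-seq libraries of mouse CD4+ T cells.

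A mature T cell usually carries one co-receptor or the other. CD4 binds MHC class II and marks helper cells, and CD8, a dimer of an alpha chain (Cd8a) with a beta chain (Cd8b1) or with another alpha chain, binds MHC class I and marks cytotoxic cells. Zbtb7b encodes ThPOK, the zinc finger factor that keeps helper cells from switching on the CD8 program. RUNX proteins, which bind DNA together with their partner CBFβ, act in the opposite direction: RUNX3 silences Cd4 and holds the cytotoxic program open, and RUNX1 represses Cd4 in immature thymocytes. Crtam encodes an adhesion receptor found on activated CD8 cells and on the CD4 cells that take up cytotoxic features.

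The mice were CD4Cre+ (called WT) or CD4Cre+ with both Dot1l alleles flanked by loxP sites, DOT1L FL/FL (called KO), so the Cre transgene was present in both genotypes and the deletion was driven in cells that switch on the Cd4 promoter. DOT1L is the enzyme that methylates lysine 79 of histone H3. Cells came from spleen and peripheral lymph nodes and were measured as naive cells or after 4 days on anti-CD3 and anti-CD28, 1 µg/ml of each, bound to the plate. Th1 cultures held IL-2 and IL-12 at 10 ng/ml each with anti-IL-4 at 10 µg/ml, and Th2 cultures held IL-2 and IL-4 at 10 ng/ml each with anti-IFN-γ at 10 µg/ml. Some WT cultures, Th1 and Th2 alike, received the DOT1L inhibitor SGC0946 or its control compound SGC0649, each at 1 µM. Each of the 10 groups had 2 libraries, of 9704500 to 13025588 protein-coding counts. The labels do not tell whether the replicates of a group are separate animals, so p-values measure the spread between libraries, which may be technical. After culture, viable cells were sorted on CD4, so the protein product of 1 of the 8 genes was itself the gate.

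The targeted gene was a weak check of the genotype, because the counts cover all exons of Dot1l and the labels do not say which were flanked. Dot1l stood at 146 and 166 CPM (the read count of a gene scaled by the TMM-adjusted library total) in KO naive cells against 163 and 171 in WT, at 131 and 146 against 176 and 186 in Th1, and at 113 and 92.5 against 149 and 164 in Th2. Only the culture groups were separated, and edgeR called Dot1l lower in KO Th1 (adjusted p = 0.00841) and KO Th2 (adjusted p = 0.000269) but not in KO naive cells (adjusted p = 0.544). The groups are named below as they were labelled.

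On GRCm38, Cd4 lies on chromosome 6 from 124864692 to 124888221 on the minus strand, and Cd8b1 (71322788 to 71337494) and Cd8a (71373427 to 71379173) lie on the plus strand of the same chromosome with 35.9 kb between them. Zbtb7b lies on chromosome 3 (89377644 to 89394776, minus strand), Runx3 on chromosome 4 (135120652 to 135177990, plus strand), Runx1 on chromosome 16 (92601466 to 92826149, minus strand), Cbfb on chromosome 8 (105170674 to 105217989, plus strand) and Crtam on chromosome 9 (40972753 to 41004628, minus strand). RefSeq promoter windows (GRCm38.p6) of 250 bases before to 50 bases after a start site were matched for 5 of the 8 genes, with 8 windows in all.

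The windows were searched on both strands for the letters that RUNX proteins bind, TGTGGT and TGCGGT. On the other strand the first reads ACCACA and the second reads as ACCGCA. These 4 windows hold a match and are shown because their genes carry the results below; the capitals mark the matches, and each runs 5′ to 3′ on the strand of its gene.
Runx3 upstream promoter, chr4:135120395-135120694, plus strand: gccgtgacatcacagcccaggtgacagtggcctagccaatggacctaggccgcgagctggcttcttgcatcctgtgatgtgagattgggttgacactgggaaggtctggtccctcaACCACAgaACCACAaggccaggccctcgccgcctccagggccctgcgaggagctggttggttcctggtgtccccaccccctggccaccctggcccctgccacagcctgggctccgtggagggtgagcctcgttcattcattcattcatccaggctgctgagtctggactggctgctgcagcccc
Runx1 upstream promoter, chr16:92826025-92826324, minus strand: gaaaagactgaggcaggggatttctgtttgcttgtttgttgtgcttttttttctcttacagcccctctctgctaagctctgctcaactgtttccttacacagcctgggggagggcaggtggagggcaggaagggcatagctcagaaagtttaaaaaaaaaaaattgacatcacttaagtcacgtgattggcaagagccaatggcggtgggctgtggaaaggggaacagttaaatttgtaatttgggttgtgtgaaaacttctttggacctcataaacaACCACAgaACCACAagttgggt
Cd8a promoter, chr6:71373177-71373476, plus strand: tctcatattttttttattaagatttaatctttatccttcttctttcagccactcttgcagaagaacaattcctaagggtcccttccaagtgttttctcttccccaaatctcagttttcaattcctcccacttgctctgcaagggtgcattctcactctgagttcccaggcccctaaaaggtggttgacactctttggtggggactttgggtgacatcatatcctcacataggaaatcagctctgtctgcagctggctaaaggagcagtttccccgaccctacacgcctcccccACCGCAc
Zbtb7b downstream promoter, chr3:89387622-89387921, minus strand: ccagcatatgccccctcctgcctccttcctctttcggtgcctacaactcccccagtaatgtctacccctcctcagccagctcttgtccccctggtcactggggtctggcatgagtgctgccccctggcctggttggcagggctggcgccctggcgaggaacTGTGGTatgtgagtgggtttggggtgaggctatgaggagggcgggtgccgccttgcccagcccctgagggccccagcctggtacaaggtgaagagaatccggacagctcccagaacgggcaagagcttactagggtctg
Both upstream Runx promoters hold TGTGGT in 2 copies on the opposite strand, starting 134 and 126 bases before the Runx3 start and at bases 29 and 37 after the Runx1 start. The copies sit in a run of 18 letters that the 2 windows share, caACCACAgaACCACAag. Among 32851 promoter windows of 300 bases, 4 hold this run: those of Runx1, Runx2 and Runx3, and that of Gm16225, whose window overlaps the Runx3 window on the other strand (chr4:135120327-135120626). TGTGGT occurs in 16.8% of all windows and 2 or more copies in 1.81%, and TGCGGT occurs in 6.45%. The downstream Zbtb7b window has 1 copy of TGTGGT starting 89 bases before the start, and the Cd8a window has 1 copy of TGCGGT at base 44 after the start. The downstream windows of Runx1 and Runx3, the upstream window of Zbtb7b and the Cbfb window have neither set of letters. These are matches of letters in short windows; binding was not measured.

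Genes of both lineages differed between KO and WT cells, and the effect differed in at least 1 pair of conditions for 7 of the 8 genes. Crtam was among the 7 only by a call lost without KO Th2 library 2 or WT Th2 library 2. Of all tested genes, 27.5% differed for Th1 minus naive, 35.7% for Th2 minus naive and 46.2% for Th1 minus Th2. The share of genes that differed in any pair was not computed. In KO naive cells 1 member rose (Runx3) and 2 fell (Cd4 and Runx1), 3 of 8 against 28.4% of all tested genes called. In KO Th1 cultures 5 of 8 fell (Cd4, Cd8b1, Zbtb7b, Runx1 and Runx3) and none was called higher, against 50.6% of all genes called and 25.8% called lower. In KO Th2 cultures 3 rose (Cd8a, Cd8b1 and Runx3) and 3 fell (Cd4, Zbtb7b and Crtam), against 53.4% of all genes. The median log2 change over the 8 genes was -0.03, -0.52 and 0.11 in naive, Th1 and Th2 cells, and over all tested genes it was 0.01, 0.01 and -0.01. With the inhibitor edgeR called 0 of 8 in both cultures, with the counts at an unadjusted p under 0.05 (2 and 0) and by DESeq2 and limma voom (0 each) given again below.

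**Figure D1:**
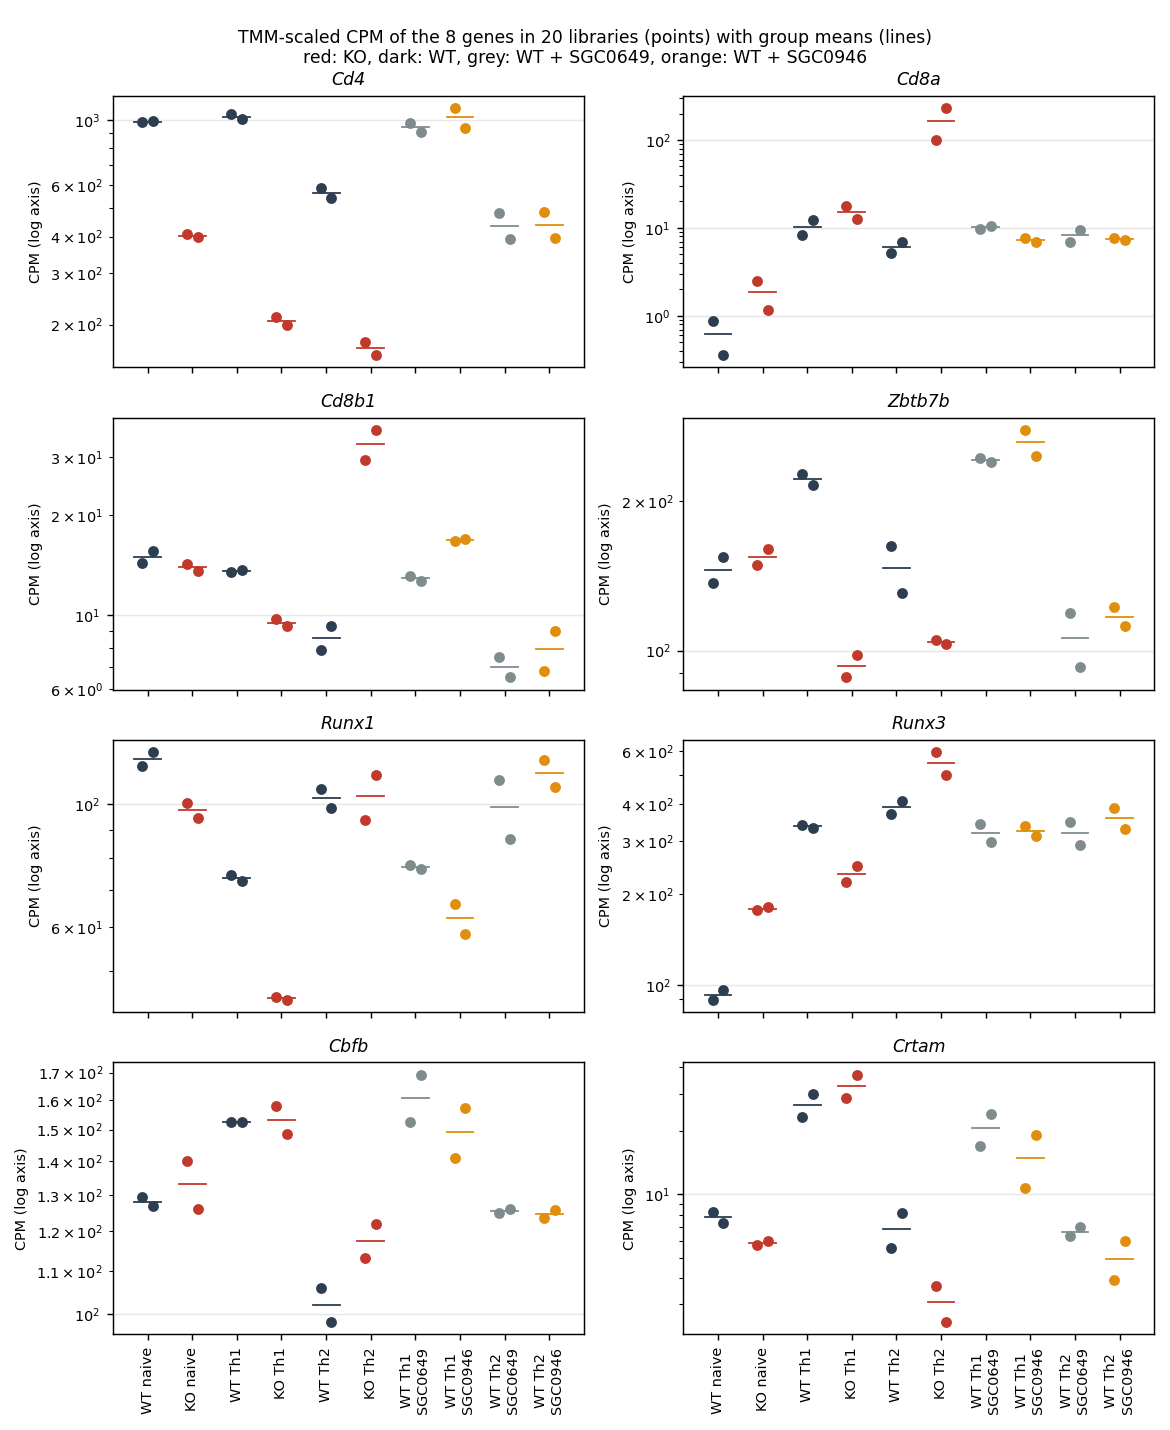
TMM-scaled CPM (log axis) of each of the 8 genes in the 20 libraries, with 1 point per library and a line at the mean of each group of 2. Cd4 is lower in all 6 KO libraries than in the WT libraries of the same condition, and Cd8a reaches 100.3 and 231 CPM in the KO Th2 libraries.

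Cd4 RNA fell with the deletion in all 3 conditions. In naive cells it was 981 and 989.6 CPM in the WT libraries and 409 and 398 CPM in the KO libraries. In Th1 cultures it was 1049 and 1007 CPM in WT and 212 and 199 CPM in KO. In Th2 cultures it was 584.5 and 543 CPM in WT and 175 and 157.5 CPM in KO. No KO library reached a WT library of its condition. The decrease was 2.44-fold in naive cells (log2 change -1.29 ± 0.11 (SE), edgeR adjusted p = 1.29e-06), larger in Th1 (-2.32 ± 0.12, edgeR adjusted p = 3.01e-10) and 3.39-fold in Th2 (-1.76 ± 0.12, edgeR adjusted p = 2.48e-09). In bulk RNA, fewer cells that transcribe a gene and less RNA of it per cell cannot be told apart. Ordered by mean CPM over the 10 groups, Cd4 was highest in WT Th1, WT Th1 with SGC0946 and WT naive cells (1028, 1021 and 985.5 CPM), neighbours whose libraries overlapped, and then fell through WT Th1 with SGC0649 (945 CPM), WT Th2 (564 CPM), WT Th2 with SGC0946 and with SGC0649 (439.5 and 435 CPM), KO naive cells (403 CPM), KO Th1 (205.5 CPM) and KO Th2 (166 CPM). The libraries of the 2 Th2 compound groups and of KO naive cells also overlapped in this order.

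Cd8a, which encodes the CD8 alpha chain, rose 27.4-fold in KO Th2 cultures. It stood at 100.3 and 231 CPM in the KO Th2 libraries and at 5.20 and 6.93 CPM in the WT Th2 libraries (log2 change 4.77 ± 0.38, 95% interval 3.95 to 5.60, edgeR adjusted p = 1.62e-07). The KO libraries differed from each other, and without KO Th2 library 2 the log2 change was 4.05 (edgeR adjusted p = 8.42e-09). In Th1 cultures the KO libraries held 17.9 and 12.8 CPM against 8.41 and 12.2 CPM in WT, a log2 difference of 0.58 ± 0.37 that did not pass (edgeR adjusted p = 0.206). It passed when the libraries of this comparison were fitted alone (edgeR adjusted p = 0.0351). In naive cells the counts were very low: 9 and 4 reads in WT and 28 and 13 reads in KO, or 0.884 and 0.359 against 2.52 and 1.18 CPM. That difference was 1.58 ± 0.87 on the log2 scale and did not pass with edgeR (adjusted p = 0.194), while DESeq2 called it (adjusted p = 0.0215). Over the 20 libraries Cd8a spanned 0.359 to 231 CPM, 644-fold from lowest to highest, the widest range of the 8 genes.

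Cd8b1, which encodes the beta chain that pairs with CD8 alpha on conventional cytotoxic T cells, rose in KO Th2 cultures too. It stood at 29.3 and 36.1 CPM in KO Th2 against 7.85 and 9.30 CPM in WT Th2, 3.81-fold higher (log2 change 1.93 ± 0.15, edgeR adjusted p = 1.74e-08). In Th1 cultures it moved the other way, at 9.75 and 9.26 CPM in KO against 13.5 and 13.7 CPM in WT (log2 change -0.52 ± 0.15, edgeR adjusted p = 0.00917). In naive cells it was 14.3 and 13.6 CPM in KO against 14.4 and 15.6 CPM in WT (log2 change -0.11 ± 0.15, edgeR adjusted p = 0.634). KO Th2 was the highest of the 10 groups for both CD8 genes, with no overlap with the next group.

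Levels of different genes were compared per kilobase of exon. The Cd8a level was 0.0998% and 0.0403% of the Cd4 level in WT naive libraries and 0.987% and 1.41% in WT Th2 libraries. In KO Th1 libraries it was 9.36% and 7.12%. In KO Th2 libraries it was 63.6% and 163%, so in 1 of the 2 libraries the CD8 alpha transcript was above the Cd4 transcript. The alpha to beta balance also shifted: the Cd8a level per kilobase was 0.270 and 0.304 of the Cd8b1 level in WT Th2, and 1.40 and 2.61 of it in KO Th2. In WT naive cells that ratio was 0.0250 and 0.00937.

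**Figure D2:**
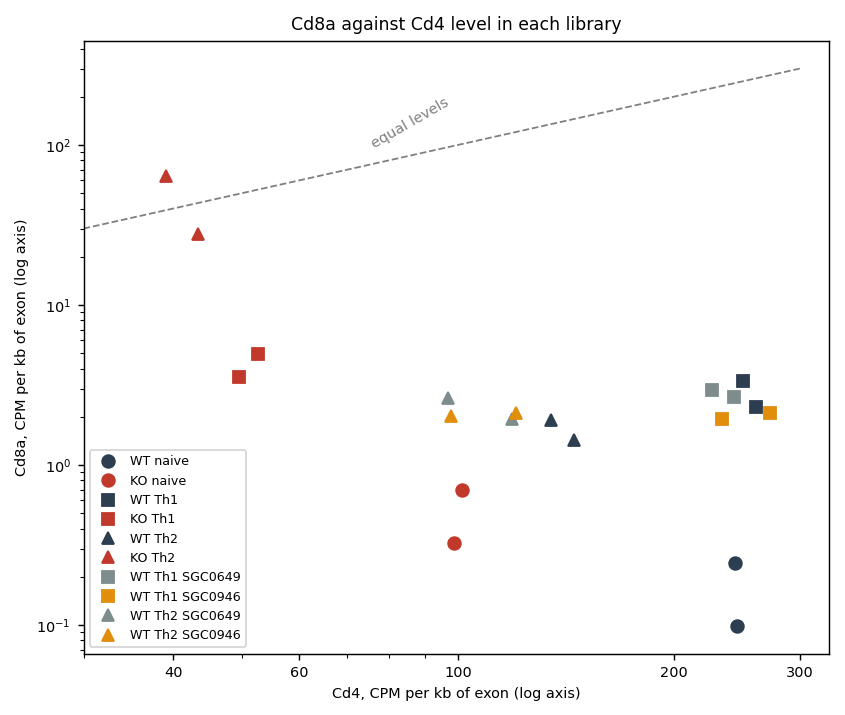
Cd8a level against Cd4 level in each of the 20 libraries, both as CPM per kilobase of exon on log axes, with colour for genotype and compound and marker shape for the condition; the dashed line marks equal levels. The 2 KO Th2 libraries lie nearest the line of equal levels, 1 on each side, and the WT naive libraries lie lowest.

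Markers of other cell types moved in several comparisons, and their part in the results was not tested. The counts called stand beside 28.4%, 50.6% and 53.4% of all tested genes called in KO naive, Th1 and Th2 cells. In KO Th2 cultures, where both CD8 genes rose, 4 of 13 pan-T cell genes rose and 7 fell, with a median log2 change of -0.45. The 4 were Thy1, Cd3d, Cd3g (972 against 263 CPM) and Cd3e (340.1 against 171 CPM), named after their values were seen, and Cd5, Cd6 and Cd40lg were among the 7. The 7 dendritic cell markers, a class of cell that can make CD8 alpha without beta, summed to 134 to 138 CPM in KO Th2 and 88.4 to 97.1 CPM in WT Th2, with 1 of 6 tested higher and 1 lower. Of these, Itgax stood at 59.6 to 81.0 CPM against 1.34 to 1.73 CPM. The Batf3 libraries lay lower, at 42.0 to 69.9 CPM in KO Th2 against 75.9 to 87.6 CPM in WT Th2. Those of Zbtb46 did too (1.75 to 2.37 CPM against 4.55 to 5.66 CPM), although only 1 of the 6 tested markers was called lower. Xcr1 was 1.08 to 1.14 CPM in KO Th2 against 0 to 0.183 CPM in WT Th2, and Flt3 was 5.95 to 7.66 CPM against 3.62 to 4.93 CPM. Clec9a was 0 to 0.108 CPM in KO Th2 and 0 in WT Th2, and Siglech was 0 in both. Natural killer cell markers summed to 5.60 to 8.20 CPM in KO Th2 against 9.67 to 10.4 CPM, with 0 of 5 called by edgeR, and gamma-delta T cell markers to 1.49 to 1.83 CPM against 19.1 to 27.3 CPM, with 3 of 3 lower. Zbtb16, which marks innate-like T cells, was 0.216 to 1.93 CPM against 31.2 to 34.2 CPM. Macrophage markers summed to 37.7 to 58.8 CPM in KO Th2 against 17.8 to 25.4 CPM in WT Th2, with 2 of 5 higher and 1 lower. Mast cell and basophil markers summed to 55.2 to 102 CPM against 33.8 to 43.7 CPM, with 1 of 5 higher. Of B cell and of erythroid markers 0 of 5 were called by edgeR. In KO Th1 cultures the 5 mast cell and basophil markers summed to 744 to 1778 CPM against 111 to 150.0 CPM in WT, with 5 of 5 higher. There 4 of 6 dendritic cell markers (sum 169 to 182 CPM against 30.2 to 31.4 CPM) and 3 of 5 natural killer cell markers (20.1 to 38.6 CPM against 13.8 to 14.1 CPM) rose too. Most of that dendritic cell sum was 1 gene, Batf3, at 130.5 to 133 CPM in KO Th1 and 20.6 to 21.9 CPM in WT Th1. Clec9a and Siglech were 0 in both Th1 groups. Zbtb16 fell in KO Th1, at 0.774 to 0.805 CPM against 12.2 to 13.2 CPM in WT Th1. Of gamma-delta T cell markers 1 of 3 was lower there, and of macrophage and of erythroid markers 1 of 5 each was higher. In KO naive cells 4 of 5 macrophage markers rose (sum 429 to 887 CPM against 267 to 354 CPM), as did 3 of 6 dendritic cell markers (31.5 to 51.6 CPM against 16.2 to 18.6 CPM) and 3 of 5 erythroid markers (303 to 1245 CPM against 195 to 302 CPM). Natural killer cell markers summed to 49.3 to 72.5 CPM in KO naive against 36.9 to 51.15 CPM in WT naive cells, with 1 of 5 higher. Of mast cell and basophil markers 2 of 5 rose, and of B cell markers 1 of 5. Zbtb16 fell, at 2.64 to 3.24 CPM against 14.2 to 14.4 CPM. The CD4+ T cell markers Cd4, Cd3e, Cd3d, Cd3g, Cd5 and Thy1 were detected in every group, with sums of 2211 to 2485 CPM in KO naive and 3112 to 3179 CPM in WT naive cells. In Th1 the sums were 3011 to 3167 CPM in KO against 3913 to 4012 CPM in WT. In Th2 they were 3352 to 4166 CPM in KO against 2035 to 2166 CPM in WT. These sums include Cd4, itself 1 of the 8 genes, so its own change is part of them.

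Zbtb7b, the gene of the CD4 lineage factor ThPOK, fell in both KO cultures and not in KO naive cells. In Th1 cultures it stood at 226.5 and 216 CPM in WT and 88.3 and 97.8 CPM in KO, 2.38-fold lower (log2 change -1.25 ± 0.12, edgeR adjusted p = 3.59e-07). In Th2 cultures it stood at 162 and 130.4 CPM in WT and 105 and 103 CPM in KO (log2 change -0.50 ± 0.12, edgeR adjusted p = 0.00225). The Th2 call was lost without WT Th2 library 1 (-0.30, edgeR adjusted p = 0.0741). In naive cells the libraries overlapped, at 137 and 154 CPM in WT and 149 and 160.2 CPM in KO (log2 change 0.09 ± 0.12, edgeR adjusted p = 0.628). In the order of the 10 groups, WT Th1 with SGC0946 (262 CPM), with SGC0649 (242 CPM) and without compound (221 CPM) came first, and KO Th1 came last (93.0 CPM). KO naive, WT Th2 and WT naive cells (154, 146 and 145 CPM) overlapped with their neighbours. The antisense gene Gm15417, which overlaps Zbtb7b and was counted apart by strand, fell in KO Th1 as well (1.04 against 3.34 CPM, log2 change -1.68 ± 0.31, edgeR adjusted p = 0.000301).

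Runx3, the gene of the CD8 lineage RUNX factor, rose in KO naive cells and KO Th2 cultures and fell in KO Th1 cultures. In naive cells it stood at 89.4 and 96.4 CPM in WT and 177 and 181 CPM in KO, 1.93-fold higher (log2 change 0.95 ± 0.12, edgeR adjusted p = 2.48e-05). In Th2 cultures it stood at 369.5 and 409.8 CPM in WT and 592 and 497 CPM in KO (log2 change 0.48 ± 0.11, edgeR adjusted p = 0.00160). In Th1 cultures it stood at 341 and 333 CPM in WT and 219.9 and 248 CPM in KO (log2 change -0.53 ± 0.11, edgeR adjusted p = 0.00101). The groups did not overlap in any of the 3 conditions. Over the 10 groups the mean ran from 92.9 CPM in WT naive cells to 545 CPM in KO Th2, and the libraries of the 6 WT culture groups (319 to 390 CPM) overlapped each with the next.

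Runx1, its relative, fell in KO Th1 cultures and, less firmly, in KO naive cells. In Th1 cultures it stood at 74.5 and 72.9 CPM in WT and 45.0 and 44.5 CPM in KO, 1.65-fold lower (log2 change -0.72 ± 0.12, edgeR adjusted p = 8.32e-05). In Th2 cultures the libraries overlapped, at 107 and 98.7 CPM in WT and 93.9 and 113 CPM in KO (log2 change 0.01 ± 0.11, edgeR adjusted p = 0.959). In naive cells it stood at 117 and 124 CPM in WT and 100.4 and 94.6 CPM in KO, a log2 change of -0.31 ± 0.11 that passed narrowly (edgeR adjusted p = 0.0487). The naive call was lost without WT naive library 1 or 2 (edgeR adjusted p = 0.0848 and 0.231), without KO naive library 1 or 2 (edgeR adjusted p = 0.128 and 0.177) and in the table of all gene classes (edgeR adjusted p = 0.0527). KO Th1 was the lowest of the 10 groups for Runx1 (44.7 CPM) and WT naive the highest (121 CPM).

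The level of Runx3 per kilobase was 1.81 and 1.84 times that of Runx1 in WT naive libraries and 4.17 and 4.52 times in KO naive libraries. The size of this ratio depends on the exon lengths used, 11827 bases for Runx1 and 5003 bases for Runx3. Without division by length, Runx1 was the higher gene in WT naive cells (mean 120.6 against 92.9 CPM). Among cultures the ratio was 10.8 and 10.8 in WT Th1, 11.6 and 13.2 in KO Th1, 8.19 and 9.81 in WT Th2 and 14.9 and 10.4 in KO Th2. Against Zbtb7b, its opponent in the lineage choice, Runx3 was at 0.731 and 0.699 of its level per kilobase in WT naive cells and at 1.33 and 1.26 in KO naive cells. This ratio was 1.68 and 1.73 in WT Th1 and 2.78 and 2.83 in KO Th1. It was 2.54 and 3.51 in WT Th2 and 6.31 and 5.40 in KO Th2. The KO libraries were above the WT libraries of their condition in all 3 conditions, although in Th1 both genes fell.

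**Figure D3:**
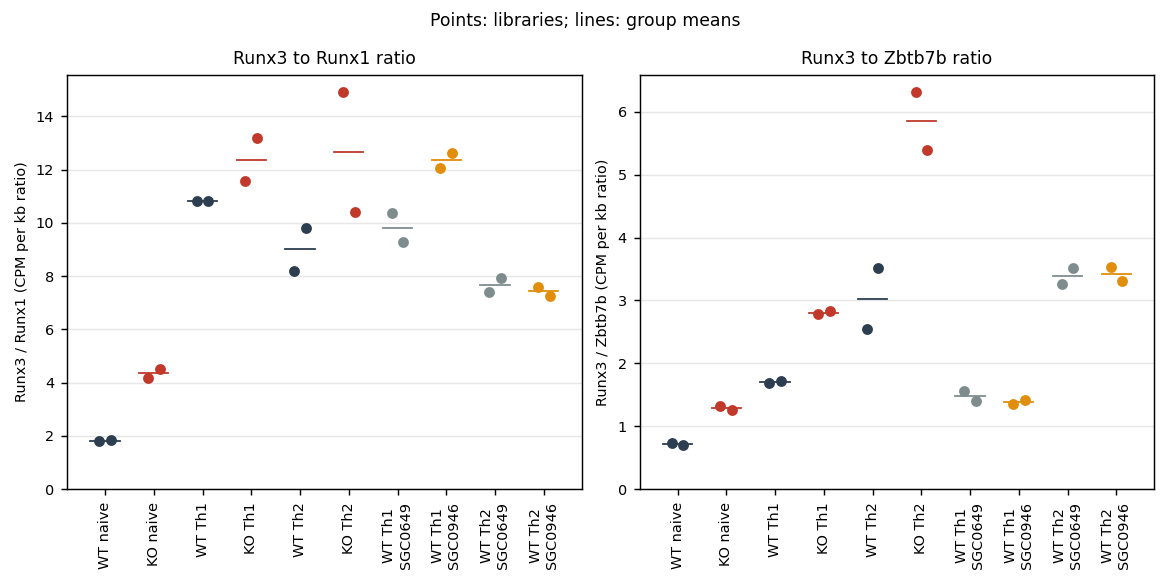
Ratio of Runx3 to Runx1 (left) and of Runx3 to Zbtb7b (right), each from CPM per kilobase of exon on a linear axis from 0, with 1 point per library and a line at the group mean. The Runx3 to Zbtb7b ratio is 6.31 and 5.40 in KO Th2, above every other library, and the Th1 compound groups stand at 1.36 to 1.56.

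Cbfb, the gene of the shared RUNX partner, had the narrowest range of the 8 over the 20 libraries, from 98.4 to 169 CPM, 1.72-fold from lowest to highest. In naive cells it stood at 129 and 127 CPM in WT and 140.0 and 126 CPM in KO (log2 change 0.05 ± 0.08, edgeR adjusted p = 0.671). In Th1 it stood at 152.6 and 152.5 CPM in WT and 158 and 148.5 CPM in KO (log2 change 0.01 ± 0.08, edgeR adjusted p = 0.968). In Th2 it stood at 106 and 98.4 CPM in WT and 113 and 122 CPM in KO, groups that did not overlap (log2 change 0.20 ± 0.08, 95% interval 0.02 to 0.38, edgeR adjusted p = 0.0528). That difference passed with DESeq2 (adjusted p = 0.0395), with RLE scaling (edgeR adjusted p = 0.0355), in the table of all gene classes (edgeR adjusted p = 0.0315) and without WT Th2 library 1 (edgeR adjusted p = 0.0410).

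Crtam was highest in the Th1 cultures of both genotypes, and edgeR called it lower in KO than in WT cells in Th2. It stood at 23.2 and 29.95 CPM in WT Th1 and 28.6 and 37.0 CPM in KO Th1, overlapping groups (log2 change 0.30 ± 0.24, edgeR adjusted p = 0.315). In Th2 it was 5.57 and 8.17 CPM in WT and 3.68 and 2.48 CPM in KO (log2 change -1.13 ± 0.35, edgeR adjusted p = 0.0135). The Th2 call was lost without WT Th2 library 2 (-0.82, edgeR adjusted p = 0.134), without KO Th2 library 2 (-0.89, edgeR adjusted p = 0.102) and with limma voom (-1.10, adjusted p = 0.0553). In naive cells it was 8.25 and 7.28 CPM in WT and 5.76 and 6.0 CPM in KO, groups that did not overlap (log2 change -0.40 ± 0.31, edgeR adjusted p = 0.367). The 4 Th1 groups (14.9 to 32.8 CPM) lay above all others and overlapped with their neighbours.

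The deletion effect, meaning the log2 difference of KO from WT, was then compared between conditions as a contrast of the group means. Th1 against naive cells, 3 of 8 members differed, all with a lower effect in Th1 (27.5% of all genes differed and 16.9% had a lower effect). They were Cd4 (-1.03 ± 0.16, edgeR adjusted p = 0.000184), Zbtb7b (-1.34 ± 0.17, edgeR adjusted p = 2.88e-05) and Runx3 (-1.47 ± 0.16, edgeR adjusted p = 8.17e-06). Th1 against Th2 cultures, 7 of 8 differed (46.2% of all genes), of which 6 had a lower effect in Th1. Of these 6, Cd8a differed most (-4.20 ± 0.53, edgeR adjusted p = 2.55e-05, and -3.47 without KO Th2 library 2), followed by Cd8b1 (-2.45 ± 0.21, edgeR adjusted p = 2.54e-07) and Runx3 (-1.01 ± 0.16, edgeR adjusted p = 8.12e-05). Zbtb7b (-0.75 ± 0.17), Runx1 (-0.73 ± 0.16) and Cd4 (-0.56 ± 0.16) also differed (edgeR adjusted p = 0.00164, 0.00148 and 0.00878). The effect on Crtam was higher in Th1 (1.43 ± 0.43, edgeR adjusted p = 0.0127), a call lost without KO Th2 library 2 (edgeR adjusted p = 0.0620) or WT Th2 library 2 (edgeR adjusted p = 0.0845). Cbfb did not pass (-0.20 ± 0.12, edgeR adjusted p = 0.187).

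Th2 against naive cells, 5 of 8 differed (35.7% of all genes), but the call of Cd8b1 alone (2.04 ± 0.21, edgeR adjusted p = 1.93e-06) was kept without each library in turn. The count was 1 without WT naive library 1, 2 without KO naive library 2 or WT Th2 library 1, and 3 without KO naive library 1, WT naive library 2, KO Th2 library 2 or WT Th2 library 2. Cd8a had a larger effect in Th2 (3.19 ± 1.18, edgeR adjusted p = 0.0484). The Cd8a difference was 2.45 without WT naive library 1 (edgeR adjusted p = 0.348), 3.83 without KO naive library 1 and 2.46 without KO Th2 library 2 (edgeR adjusted p = 0.0492 and 0.0135). It also missed the threshold without WT naive library 2, KO naive library 2, WT Th2 library 1 or WT Th2 library 2 (edgeR adjusted p = 0.0603, 0.0961, 0.0696 and 0.0512) and with the replicate number as a block (3.14, edgeR adjusted p = 0.0599). The call was lost as well with limma voom (3.11, adjusted p = 0.101), without a filter, with only the libraries compared and in the table of all gene classes (edgeR adjusted p = 0.111, 0.204 and 0.0594). Zbtb7b stood at -0.58 ± 0.17, Cd4 at -0.47 ± 0.16 and Runx3 at -0.46 ± 0.16 (edgeR adjusted p = 0.0125, 0.0289 and 0.0339). Zbtb7b missed the threshold without WT naive library 1 or WT Th2 library 1 (edgeR adjusted p = 0.0692 and 0.0970). Cd4 missed it without any 1 of the naive libraries, KO Th2 library 2 or WT Th2 library 1 (edgeR adjusted p from 0.0566 to 0.115), and Runx3 without WT naive library 1, KO naive library 1 or 2, or library 2 of KO Th2 or WT Th2 (edgeR adjusted p from 0.0576 to 0.145).

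**Figure D4:**
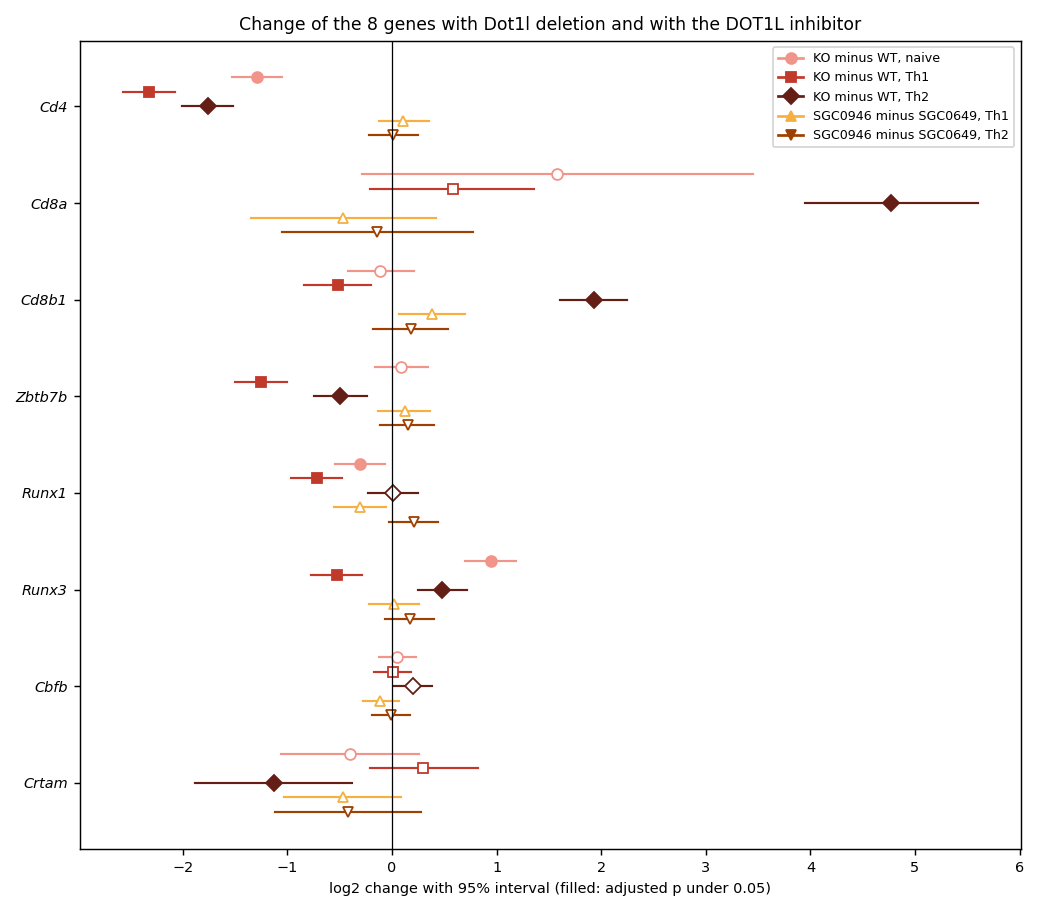
Log2 change of the 8 genes for KO minus WT in naive, Th1 and Th2 cells and for SGC0946 minus SGC0649 in WT Th1 and Th2 cultures, with bars for the 95% interval and filled markers for an adjusted p under 0.05. Filled markers appear for the deletion only, and the KO Th2 change of Cd8a, 4.77, is the largest.

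SGC0946 and SGC0649 were compared at 1 µM in both cultures, which gave 16 comparisons of a member. In Th1 cultures edgeR called 0 of 8 members (0.467% of all genes called), with 2 at an unadjusted p under 0.05 and 0 by DESeq2 or limma voom. Those 2 were Cd8b1, at 16.7 and 17.01 CPM with SGC0946 and 13.2 and 12.7 CPM with SGC0649 (log2 change 0.38 ± 0.15, edgeR adjusted p = 0.355), and Runx1, at 66.2 and 58.5 CPM against 77.9 and 76.3 CPM (-0.31 ± 0.12, edgeR adjusted p = 0.327). In Th2 cultures edgeR called 0 of 8 (7.96% of all genes called), with 0 at an unadjusted p under 0.05 and 0 by DESeq2 or limma voom. Runx1 was called in Th2 without SGC0649 library 1 (0.38, edgeR adjusted p = 0.0302), against 0.21 ± 0.11 with it.

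Intervals set how large a compound difference these libraries could hide. For Cd4 the 95% interval of the log2 difference was -0.12 to 0.35 in Th1 and -0.22 to 0.25 in Th2. For Zbtb7b it was -0.13 to 0.36 and -0.11 to 0.40, and for Runx3 -0.22 to 0.26 and -0.07 to 0.40. For Cd8a it was wide, -1.35 to 0.42 in Th1 and -1.05 to 0.77 in Th2, at 7.72 and 7.01 CPM with SGC0946 against 9.72 and 10.6 CPM in Th1 and at 7.62 and 7.39 CPM against 6.996 and 9.53 CPM in Th2. For Cd8b1 it was 0.07 to 0.70 in Th1 and -0.18 to 0.54 in Th2, and for Runx1 -0.55 to -0.06 and -0.03 to 0.44. The Th1 intervals of Cd8b1 and Runx1 left out 0, but no interval was adjusted for the number of genes tested. For Cbfb it was -0.28 to 0.07 and -0.19 to 0.17, and for Crtam -1.03 to 0.09 and -1.12 to 0.28. The structures of the compounds are not described in the labels.

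The deletion effect and the inhibitor effect were set against each other in 1 contrast per culture. In Th1, 4 of 8 members differed, all with a lower deletion effect (30.7% of all genes differed and 17.9% had a lower effect): Cd4 by -2.43 ± 0.16 (edgeR adjusted p = 2.96e-08), Zbtb7b by -1.37 ± 0.17 (edgeR adjusted p = 1.93e-05), Cd8b1 by -0.90 ± 0.21 (edgeR adjusted p = 0.00452) and Runx3 by -0.55 ± 0.16 (edgeR adjusted p = 0.0155). The Runx3 call was lost without KO Th1 library 1, SGC0649 library 2 or SGC0946 library 1 (edgeR adjusted p = 0.0675, 0.0750 and 0.0653). Crtam was not called (0.78 ± 0.36, edgeR adjusted p = 0.111) but was with the replicate number as a block (0.78, edgeR adjusted p = 0.0315) and without SGC0946 library 2 (1.23). Runx1 was not called either (-0.41 ± 0.16, edgeR adjusted p = 0.0638). It passed without a filter and with only the libraries compared (edgeR adjusted p = 0.0482 and 0.00697), and stood at -0.52 without SGC0946 library 2. Cd8a (1.04 ± 0.55, edgeR adjusted p = 0.165) passed with only the libraries compared (1.05, edgeR adjusted p = 0.00625). In Th2, 4 of 8 differed (32.0% of all genes): Cd8a by 4.92 ± 0.57 (edgeR adjusted p = 2.26e-05, and 4.19 without KO Th2 library 2), Cd8b1 by 1.75 ± 0.23 (edgeR adjusted p = 2.38e-05), Cd4 by -1.78 ± 0.16 (edgeR adjusted p = 5.86e-07) and Zbtb7b by -0.64 ± 0.17 (edgeR adjusted p = 0.00827). The Zbtb7b call was lost without WT Th2 library 1 (-0.45, edgeR adjusted p = 0.0676) and with the libraries of the contrast alone (-0.62, edgeR adjusted p = 0.0536). Cre acted before the cells were taken and the inhibitor was given in culture, so the length of DOT1L loss and its means cannot be told apart here.

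SGC0649 itself was compared with cultures that had no compound. In Th1 edgeR called 0 of 8 members (0.0153% of all genes), with 0 at an unadjusted p under 0.05 and 0 by DESeq2 or limma voom. In Th2 edgeR called 0 of 8 (0.673% of all genes), but 4 had an unadjusted p under 0.05, 3 were called by DESeq2 and 0 by limma voom. Cd4 stood at 480 and 391 CPM with SGC0649 against 584.5 and 543 CPM without (log2 change -0.37 ± 0.11, edgeR adjusted p = 0.0967). Zbtb7b stood at 119 and 92.5 CPM against 162 and 130.4 CPM (-0.47 ± 0.12, edgeR adjusted p = 0.0703), Runx3 at 347 and 291 CPM against 369.5 and 409.8 CPM (-0.29 ± 0.11, edgeR adjusted p = 0.159), and Cbfb at 125.0 and 126 CPM against 106 and 98.4 CPM (0.30 ± 0.08, edgeR adjusted p = 0.0872). With the replicate number as a block Cd4 (-0.38, edgeR adjusted p = 0.0279) and Zbtb7b (-0.47, edgeR adjusted p = 0.0345) passed. Without SGC0649 library 1 all 4 passed, Cd4 at -0.52 (edgeR adjusted p = 0.0112), Zbtb7b at -0.65 (edgeR adjusted p = 0.00420), Runx3 at -0.41 (edgeR adjusted p = 0.0369) and Cbfb at 0.32 (edgeR adjusted p = 0.0358).

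WT cultures were also compared with WT naive cells. From naive to Th1, 6 of 8 members were called, 5 higher and 1 lower, against 67.3% of all genes called. Runx3 rose 3.63-fold (log2 change 1.86 ± 0.12, edgeR adjusted p = 6.01e-10), Crtam 3.42-fold (1.78 ± 0.28, edgeR adjusted p = 3.04e-05), Zbtb7b 1.52-fold (0.60 ± 0.12, edgeR adjusted p = 0.000237) and Cbfb 1.19-fold (0.25 ± 0.08, edgeR adjusted p = 0.0129), and Runx1 fell 1.64-fold (-0.71 ± 0.11, edgeR adjusted p = 2.99e-05). The Cbfb call was lost without WT naive library 2 (edgeR adjusted p = 0.0712). From naive to Th2, 5 of 8 were called, 2 higher and 3 lower, against 71.9% of all genes. Runx3 rose 4.19-fold (2.07 ± 0.12, edgeR adjusted p = 9.63e-11), while Cd4 (-0.81 ± 0.11), Cd8b1 (-0.81 ± 0.16) and Cbfb (-0.33 ± 0.08) fell (edgeR adjusted p = 6.24e-06, 0.000186 and 0.00230). Cd8a rose in both, by 4.05 ± 0.63 in Th1 and 3.28 ± 0.70 in Th2 (edgeR adjusted p = 6.18e-05 and 0.000774), from the 9 and 4 reads of the naive libraries. Without WT naive library 1 these were 4.80 and 4.02.

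WT Th1 and Th2 cultures differed in 6 of 8 members, 5 higher and 1 lower in Th1, against 53.3% of all genes called. Crtam was 3.89-fold higher in Th1 (log2 difference 1.96 ± 0.28, edgeR adjusted p = 2.39e-05), Cd4 1.82-fold (0.87 ± 0.11, edgeR adjusted p = 6.19e-06), Cd8b1 1.59-fold (0.67 ± 0.16, edgeR adjusted p = 0.00172), Zbtb7b 1.51-fold (0.59 ± 0.12, edgeR adjusted p = 0.000440) and Cbfb 1.49-fold (0.58 ± 0.08, edgeR adjusted p = 2.04e-05). Runx1 was 1.39-fold lower (-0.48 ± 0.11, edgeR adjusted p = 0.00185). Runx3 (-0.21 ± 0.11, edgeR adjusted p = 0.129) and Cd8a (0.77 ± 0.42, edgeR adjusted p = 0.137) did not pass. Both passed with only the libraries compared (-0.22 and 0.76, edgeR adjusted p = 0.00784 and 0.00884).

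In KO cells Th1 and Th2 cultures differed in 7 of 8 members, 3 higher and 4 lower in Th1, against 59.8% of all genes called. Crtam was 10.5-fold higher in Th1 (log2 difference 3.39 ± 0.31, edgeR adjusted p = 1.78e-07), and Cd8a 10.8-fold (-3.43 ± 0.34, edgeR adjusted p = 1.17e-06), Cd8b1 3.43-fold (-1.78 ± 0.15, edgeR adjusted p = 2.98e-08), Runx3 2.33-fold (-1.22 ± 0.11, edgeR adjusted p = 1.34e-07) and Runx1 2.31-fold (-1.21 ± 0.12, edgeR adjusted p = 1.83e-07) lower. The Cd8a difference was -2.70 without KO Th2 library 2. Cbfb (0.38 ± 0.08, edgeR adjusted p = 0.000818) and Cd4 (0.31 ± 0.11, edgeR adjusted p = 0.0292) were higher in Th1. The Cd4 call was lost without KO Th1 library 1 or 2 or KO Th2 library 2 (edgeR adjusted p = 0.174, 0.0650 and 0.153). From KO naive cells, all 8 members were called in Th1 (4 higher, 4 lower, 71.0% of all genes) and 6 of 8 in Th2 (3 higher, 3 lower, 69.1% of all genes). In Th1 the call of Cbfb (0.20 ± 0.08, edgeR adjusted p = 0.0365) was lost with DESeq2 (adjusted p = 0.0590), with RLE scaling, no filter or only the libraries compared (edgeR adjusted p = 0.0535, 0.0763 and 0.0790), and without KO naive library 2 or KO Th1 library 1 (edgeR adjusted p = 0.323 and 0.204). In Th2 the call of Crtam (-0.91 ± 0.36, edgeR adjusted p = 0.0326) was lost with limma voom (adjusted p = 0.0908), with only the libraries compared (edgeR adjusted p = 0.0512), and without KO naive library 1 or 2 or KO Th2 library 2 (edgeR adjusted p = 0.0752, 0.104 and 0.172). Cd8a was 8.24-fold higher in KO Th1 and 88.7-fold higher in KO Th2 than in KO naive cells (log2 change 3.04 ± 0.48 and 6.47 ± 0.44, edgeR adjusted p = 6.22e-05 and 1.14e-08). Without KO naive library 1 these were 3.69 and 7.11, and the Th2 value was 5.74 without KO Th2 library 2. Zbtb7b fell in both KO cultures (-0.73 ± 0.12 in Th1 and -0.57 ± 0.12 in Th2, edgeR adjusted p = 3.83e-05 and 0.000434). Runx3 rose by 0.39 ± 0.11 in KO Th1 and 1.61 ± 0.12 in KO Th2 (edgeR adjusted p = 0.00609 and 1.88e-09), the first lost without KO Th1 library 2 (edgeR adjusted p = 0.0774).

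Other genes of the pathway were read from 3 lists. Of 27 regulators of the lineage choice and their cofactors, the deletion raised 3 and lowered 5 in naive cells, raised 2 and lowered 16 in Th1, and raised 4 and lowered 12 in Th2, beside 28.4%, 50.6% and 53.4% of all genes called. Their median log2 changes were -0.03, -0.39 and -0.16. Tox, a factor needed for CD4 lineage cells, fell from 16.3 to 1.14 CPM in Th1 (log2 change -3.82 ± 0.24, edgeR adjusted p = 3.18e-09), from 3.79 to 0.381 CPM in Th2 (-3.24 ± 0.39, edgeR adjusted p = 2.42e-06) and from 70.2 to 38.6 CPM in naive cells (-0.86 ± 0.15, edgeR adjusted p = 0.000566). Tcf7, which encodes TCF1, fell in Th1 (-3.04 ± 0.34, edgeR adjusted p = 6.92e-06) and Th2 (-2.77 ± 0.36, edgeR adjusted p = 1.82e-05). Its relative Lef1 fell in naive cells (-1.25 ± 0.08, edgeR adjusted p = 4.71e-08), in Th1 (-1.49 ± 0.08, edgeR adjusted p = 6.65e-10) and in Th2 (-0.94 ± 0.08, edgeR adjusted p = 6.12e-08). Gata3, which acts upstream of Zbtb7b in the thymus, fell in KO Th1 (37.4 to 11.5 CPM, -1.70 ± 0.16, edgeR adjusted p = 4.18e-07). It fell in KO Th2 too (321 to 199 CPM, -0.69 ± 0.13, edgeR adjusted p = 0.000317) and was not called in naive cells (0.24 ± 0.14, edgeR adjusted p = 0.218). The culture values of Lef1 and the Th2 and naive values of Gata3 were chosen for print after they were seen. Myb rose from 33.3 to 398 CPM in KO Th2 (3.58 ± 0.12, edgeR adjusted p = 1.14e-12).

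Runx2, the third member of the RUNX family and the third gene with the shared promoter run, rose in KO naive cells from 16.8 to 60.3 CPM (log2 change 1.85 ± 0.25, edgeR adjusted p = 0.000137) and in KO Th2 from 48.5 to 105.0 CPM (1.11 ± 0.23, edgeR adjusted p = 0.000842). In KO Th1 it stood at 158 against 119.5 CPM (0.41 ± 0.21, edgeR adjusted p = 0.129). Its Th1 and Th2 values were chosen for print after they were seen. Of the RUNX genes, Runx2 and Runx3 were called higher in KO naive and KO Th2 cells, and Runx1 in neither.

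Of 18 cytotoxic and CD8 effector genes, 14 rose in KO naive cells, 9 rose and 4 fell in KO Th1, and 16 rose in KO Th2, against 28.4%, 50.6% and 53.4% of all genes called in either direction. Their median log2 changes were 1.13, 0.56 and 2.12, beside 0.01, 0.01 and -0.01 over all genes. In naive cells the chemokine gene Ccl5 (45.8 to 154 CPM, 1.75 ± 0.31, edgeR adjusted p = 0.00105), the receptor gene Klrk1 (1.57 ± 0.18, edgeR adjusted p = 2.23e-05) and the granzyme gene Gzmb (1.53 ± 0.18, edgeR adjusted p = 1.74e-05) rose, the 3 largest changes among called genes of the list above an average log2 CPM of 1. In KO Th2, Gzma (5.38 ± 0.31, edgeR adjusted p = 5.08e-09), Gzmk (5.65 ± 0.70, edgeR adjusted p = 4.57e-06) and the receptor gene Cd244 (4.75 ± 0.23, edgeR adjusted p = 2.77e-10) had the largest increases among called genes of the list above that average level. The Gzmk change rests on a very low WT level, 0.143 CPM in WT Th2 against 7.85 CPM in KO Th2. Among called genes of the list the same 3 had the largest changes in KO Th1, Gzma, Gzmk and Cd244 at 3.60 ± 0.28, 3.34 ± 0.41 and 3.24 ± 0.25 (edgeR adjusted p = 2.44e-07, 7.15e-06 and 9.04e-08). Granzyme genes have close copies, and reads shared between copies make their values uncertain.

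Of 13 pan-T cell genes, the deletion raised 1 and lowered 6 in naive cells, raised 1 and lowered 11 in Th1, and raised 4 and lowered 7 in Th2 (medians -0.24, -0.80 and -0.45), beside the same 28.4%, 50.6% and 53.4% of all genes called. Cd5 and Cd6, receptors that dampen T cell receptor signals, fell in all 3: Cd5 by -1.07 ± 0.12, -3.76 ± 0.14 and -4.29 ± 0.15 (edgeR adjusted p = 1.00e-05, 7.27e-12 and 1.14e-12) and Cd6 by -1.11 ± 0.14, -2.91 ± 0.15 and -3.71 ± 0.16 (edgeR adjusted p = 3.98e-05, 6.02e-10 and 4.05e-11). Cd40lg, the helper cell ligand for CD40, fell from 25.1 to 0.674 CPM in KO Th2 (-5.19 ± 0.21, edgeR adjusted p = 8.67e-12) and from 44.3 to 15.1 CPM in KO Th1 (-1.55 ± 0.12, edgeR adjusted p = 2.62e-08). In KO Th2 the fall of Cd4, Cd5, Cd6 and Cd40lg stood beside rises of Cd3g and Cd3e.

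With SGC0946 in Th1, edgeR called 0 genes of the 3 lists, with 2 of 27, 5 of 18 and 1 of 13 at an unadjusted p under 0.05. In Th2 it called 1 regulator higher and 2 lower, 1 cytotoxic gene higher, and 1 pan-T cell gene higher and 3 lower, beside 7.96% of all genes called. Myb rose from 55.2 to 142 CPM (log2 change 1.36 ± 0.11, edgeR adjusted p = 1.46e-05), Hdac2 (-0.41 ± 0.08, edgeR adjusted p = 0.00714) and Lef1 (-0.35 ± 0.08, edgeR adjusted p = 0.0129) fell, and Gzmb rose (0.52 ± 0.14, edgeR adjusted p = 0.0333). Of the pan-T cell genes Cd5 (-0.74 ± 0.12, edgeR adjusted p = 0.00142) Cd6 (-0.52 ± 0.14, edgeR adjusted p = 0.0328) and Cd40lg (-0.51 ± 0.13, edgeR adjusted p = 0.0198) fell while Cd3g rose (0.59 ± 0.14, edgeR adjusted p = 0.0183). None of the 8 lineage genes was among the genes edgeR called with the inhibitor.

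**Figure D5:**
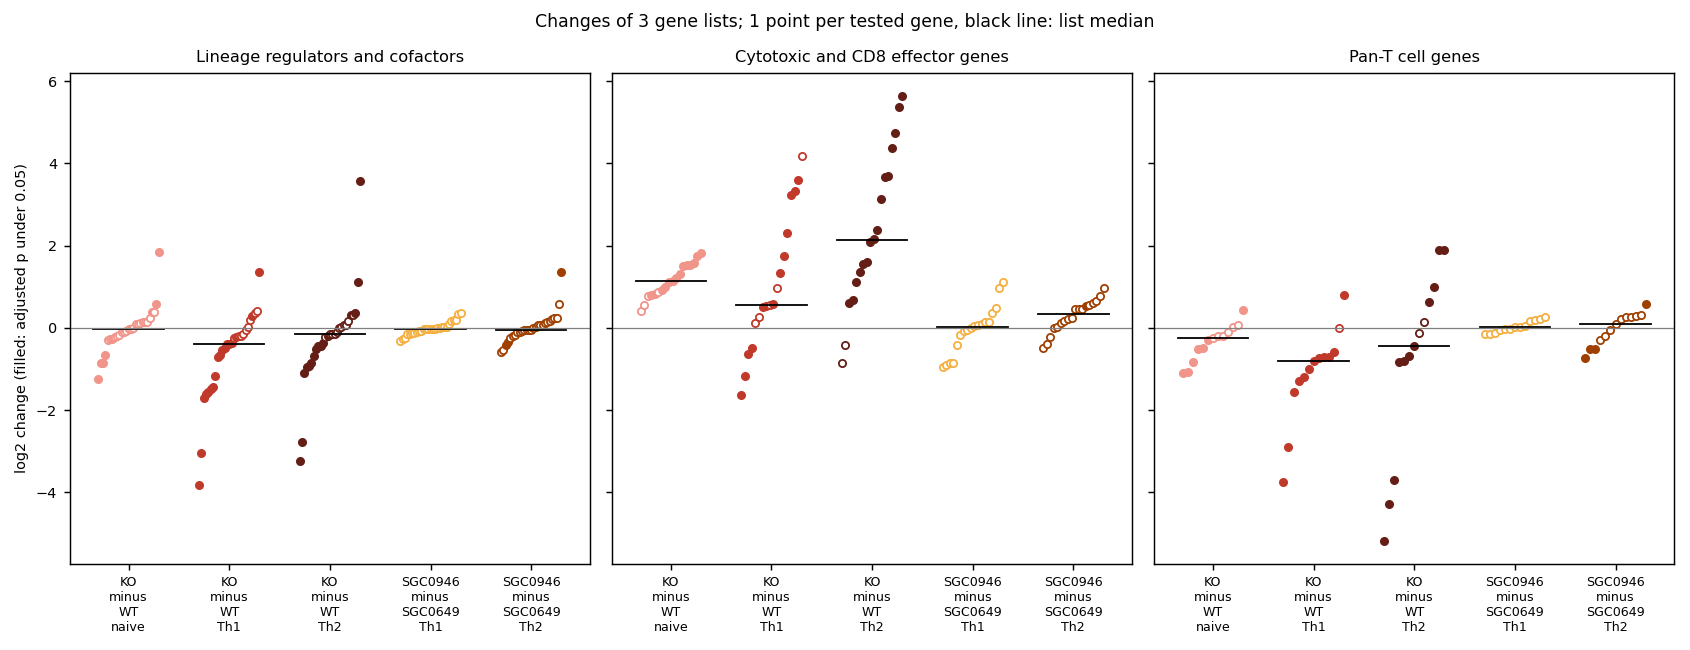
Log2 changes of the tested genes of 3 lists (27 lineage regulators and cofactors, 18 cytotoxic and CD8 effector genes, 13 pan-T cell genes) for the deletion in 3 conditions and the inhibitor in 2 cultures, with 1 point per gene, a black line at the median and filled points for an adjusted p under 0.05. The cytotoxic genes have medians of 1.13, 0.56 and 2.12 with the deletion and 0.02 and 0.34 with the inhibitor.

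The genes next to the members were measured in the table of all gene classes. Beside Cd4, Gpr162 (0.709 kb away) rose in all 3 KO conditions, by 1.69 ± 0.37, 1.07 ± 0.25 and 1.34 ± 0.30 in naive, Th1 and Th2 cells (edgeR adjusted p = 0.00314, 0.00184 and 0.00115), where Cd4 fell. On its other side Lag3 (16.1 kb away), whose product also binds MHC class II, rose in KO naive cells (0.52 ± 0.15, edgeR adjusted p = 0.0169) and from 232 to 914.5 CPM in KO Th2 (1.98 ± 0.11, edgeR adjusted p = 1.80e-10), and stood at -0.22 ± 0.11 in Th1 (edgeR adjusted p = 0.0982). Lag3 also rose with SGC0946 in Th2 (0.73 ± 0.11, edgeR adjusted p = 0.000580). Beside Cd8a, Rmnd5a (9.46 kb away) fell in KO Th1 (-0.77 ± 0.08, edgeR adjusted p = 3.89e-07) and in KO Th2 (-0.30 ± 0.08, edgeR adjusted p = 0.00365), where both CD8 genes rose. Beside Runx3, Clic4 (36.0 kb away) rose in KO naive and KO Th1 cells (0.69 ± 0.12 and 0.41 ± 0.11, edgeR adjusted p = 0.000709 and 0.00626) and fell in KO Th2 (-0.49 ± 0.11, edgeR adjusted p = 0.00173), and Syf2 fell in all 3 (-0.37, -0.41 and -0.33, edgeR adjusted p = 0.0178, 0.00511 and 0.0184). Beside Crtam, Ubash3b (6.47 kb away) fell in KO Th1 (-1.28 ± 0.11, edgeR adjusted p = 9.89e-08) and KO Th2 (-0.45 ± 0.12, edgeR adjusted p = 0.00549). Setd4, 757 kb from Runx1, rose in KO Th2 (0.99 ± 0.15, edgeR adjusted p = 2.94e-05), D230025D16Rik beside Cbfb stood between -0.19 and 0.04, and Smyd1 beside Cd8b1, with 92 counts over the 20 libraries, fell in KO Th1 (0.0376 against 0.595 CPM, edgeR adjusted p = 0.00710). Dcst2, Lenep, Clic6, Ces4a and 4931429I11Rik, with 0 to 45 counts, were not tested.

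Patterns over the 10 groups were described by Pearson's r of mean log2 CPM, over groups that share a genotype, culture or compound and 1 scaling. Among members, Cd4 and Zbtb7b had r = 0.84, Cd8a and Runx3 0.84, and Cbfb and Crtam 0.80, while Runx1 had -0.83 with Crtam and -0.71 with Cbfb. Cd4 and Cd8a had r = -0.59 and the 2 CD8 genes 0.39. Values were smaller for Zbtb7b with Runx3 (-0.02), Zbtb7b with Cd8a (-0.25) and Cd4 with Runx3 (-0.31). Among 11373 genes, those most like Cd4 were Gh, Rnf19a and Bach2 (r = 0.973, 0.973 and 0.971), and those most like Cd8a were Taf12, Mgat1 and Chst14 (0.982, 0.969 and 0.967). Runx3 was most like Fam114a1, March9 and Bscl2 (0.985, 0.982 and 0.981), Zbtb7b like Arf3, Pik3ca and Zfp467 (0.979, 0.971 and 0.966), and Cd8b1 like Ubash3a, Ppp1r18 and Spryd3 (0.961, 0.961 and 0.960). Crtam was most like Serpinb9b, Hsf2 and Umps (0.960, 0.959 and 0.958), Runx1 like Stx4a, Smim4 and Maml1 (0.954, 0.953 and 0.950), and Cbfb like Actr2, Abracl and Casp8ap2 (0.953, 0.949 and 0.949). These values rest on 10 points each.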

How the data were processed

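Read counts per gene of 20 mouse RNA-seq libraries were used as the authors deposited them. Per the file headers, the counts come from featureCounts 1.5.3 with the strand option at 2 and the Ensembl annotation, release 84, of GRCm38, leaving out multi-mapping reads; the submitters' processing notes also name edgeR and limma. The aligner is not given in the sources used here. Exon lengths are in the deposited count table. Columns were matched to samples by library number, because 2 columns carry replicate number 1 where the titles carry 2.

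Library totals were scaled by TMM (factors 0.878 to 1.08), genes were filtered with filterByExpr (minimum count 10, minimum total 15), and 13072 of 22048 protein-coding genes were tested. The main test was the quasi-likelihood test of edgeR 4.0.16 in R 4.3.3 with robust fitting, 1 mean for each of 10 groups over all 20 libraries and 10 residual degrees of freedom. Benjamini-Hochberg adjustment covered all tested genes, and a call needed an adjusted p under 0.05. The SE of a log2 change is its size divided by the root of the F statistic. Figures such as "981 and 989.6 CPM" give library 1 and library 2. An exact permutation test of 2 against 2 libraries cannot go below p = 0.333, so none was run. Replicates differed by more than counting noise (lowest chi-square per degree of freedom 2.20).

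Alternatives were RLE scaling, no filter, DESeq2 1.42.0, limma voom 3.58.1, the table of all gene classes, a fit of only the libraries compared, the replicate number as a block, and leaving out each library. Same-numbered libraries deviated together among WT cultures (15 pairs of groups, correlations 0.20 to 0.70) and between WT and KO of one condition (3 pairs, 0.15 to 0.33), so there the numbers were taken to pair libraries; the labels do not say what a number marks. Over all 45 pairs of groups the correlation ran from -0.11 to 0.70. The statistics were tested on simulated data.

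The 8 genes and the 3 lists were chosen with earlier results of these data known. Named from each list were up to 3 called genes with the largest change (average log2 CPM 1 or more), and beside each of the 8 genes its nearest protein-coding neighbours and the 3 genes most like it.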

Additional observations from a re-analysis of the deposited data

Results flagged for a closer look

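The effect of the deletion (KO minus WT, log2) differed between conditions for 15 of 24 combinations of gene and pair of conditions, by edgeR contrasts with Benjamini-Hochberg adjustment over all genes; the pairs of conditions share libraries. Of all tested genes, 27.5% differed for Th1 minus naive (3 of the 8), 35.7% for Th2 minus naive (5 of the 8) and 46.2% for Th1 minus Th2 (7 of the 8). Th1 minus naive, the differences were -1.03 for Cd4, -1.34 for Zbtb7b and -1.47 for Runx3. Th2 minus naive, they were -0.47 for Cd4, 3.19 for Cd8a, 2.04 for Cd8b1, -0.58 for Zbtb7b and -0.46 for Runx3. Th1 minus Th2, they were -0.56 for Cd4, -4.20 for Cd8a, -2.45 for Cd8b1, -0.75 for Zbtb7b, -0.73 for Runx1, -1.01 for Runx3 and 1.43 for Crtam. Cbfb is the 1 gene of the 8 with no such difference in any pair. Runx3 and Cd8b1 were called in opposite directions in Th1 and Th2 cultures.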

How the results depend on the processing

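Of 144 results for single genes, 137 kept their direction and their side of the threshold with DESeq2, 140 with limma voom, 139 without a filter, 130 with only the libraries compared, 140 with the replicate block, 141 with RLE scaling and 139 in the table of all gene classes; over all fits without 1 library, 654 did, 41 lost their call, 12 gained one and 29 changed sign. The number of the 8 genes called moved by over 1.5 times in few cases. For the deletion effect of Th1 minus naive it was 5 with only the libraries compared, against 3, and the cause was not tested. For SGC0649 against no compound in Th2 it was 3 with DESeq2, 1 without a filter and 2 with the replicate block, against 0, and 0 to 4 without 1 library, where 4 came without SGC0649 library 1. For SGC0946 against SGC0649 in Th2 it was 0 to 1, with 1 also without SGC0649 library 1. For the deletion effect of Th2 minus naive it was 1 to 6, against 5.

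With the replicate number as a block, 4 gene results changed sides: Cd4 (-0.38) and Zbtb7b (-0.47) for SGC0649 in Th2 and Crtam (0.78) for the deletion minus the inhibitor in Th1 gained a call, and Cd8a (3.14) for the deletion effect of Th2 minus naive lost it. No other call changed under the pairing.

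Sign changes touched uncalled values near 0. Zbtb7b for WT Th2 minus naive was -0.01 with RLE scaling and -0.01 with DESeq2, Cbfb for KO minus WT in Th1 was -0.00 without a filter, and Cd8a for SGC0649 in Th1 was 0.01 with limma voom. In the table of all gene classes and with only the libraries compared, Cd4 for SGC0946 in Th2 was -0.02 and -0.01, and Crtam for SGC0649 in Th2 was 0.01 and 0.00. Without 1 library, Cbfb ranged from -0.14 to 0.04 (deletion effect, Th1 minus naive), -0.02 to 0.13 (KO minus WT, naive), -0.05 to 0.04 (KO minus WT, Th1), -0.01 to 0.14 (SGC0649, Th1) and -0.03 to 0.00 (SGC0946, Th2). With SGC0946, Cd4 ranged from -0.01 to 0.23 in Th1 and -0.14 to 0.15 in Th2, Runx3 from -0.07 to 0.12 in Th1, and in Th2 Cd8a from -0.36 to 0.11, Cd8b1 from -0.05 to 0.36 and Zbtb7b from -0.02 to 0.32. With SGC0649, Cd8a ranged from -0.26 to 0.27 and Runx3 from -0.18 to 0.01 in Th1, and Crtam from -0.29 to 0.25 and Runx1 from -0.23 to 0.10 in Th2. Runx1 ranged from -0.13 to 0.13 (KO minus WT, Th2) and -0.07 to 0.22 (KO Th2 minus naive), and in WT Th2 minus naive Crtam ranged from -0.47 to 0.07 and Zbtb7b from -0.17 to 0.16.

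With 2 libraries a group, a lone library left in a group was assumed to vary like the others. Depth limits Cd8a in naive cells, with 4 to 28 reads a library, and Crtam in KO Th2, with 23 and 42 reads. RLE scaling moved the median of all genes by at most 0.0367 on the log2 scale.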
